A study of Mus musculus with 15 samples.

Results

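The genes described here carry cyclic AMP-protein kinase A (PKA) and protein kinase C (PKC) signalling in neurons. They are the adenylyl cyclase Adcy1, the PKA catalytic subunits Prkaca and Prkacb, the PKA regulatory subunits Prkar1a, Prkar1b and Prkar2b, and the PKC isoforms Prkca, Prkcb and Prkce. Members were all listed Ensembl transcripts whose gene name in GENCODE M21 is one of these 9 genes. The rule uses gene names and no measured value, although the genes were picked with earlier results of these data known. This gave 18 transcripts of the 10370 listed, in 9 of 7740 genes. Prkca, Prkaca and Adcy1 each had 1 listed transcript, and the other 6 genes had 2 to 4.

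The study asked how cortical transcription differed from Sham at 1 month in high-frequency head impact (HF-HI), a closed-head model of many mild impacts given daily to anesthetized mice. The labels describe male C57BL/6 mice aged 12 weeks, and they give 7 Sham and 8 HF-HI libraries of dissected cortex. Sham animals underwent the procedure without head impact. No genotype or drug separated the groups. Total RNA of whole tissue was sequenced, so fewer cells of a type and less RNA per cell cannot be told apart.

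Adenylyl cyclases make cyclic AMP from ATP. Adcy1 is the neuronal form that calcium and calmodulin stimulate, and it therefore links calcium entry at synapses to cyclic AMP. PKA is held inactive as a tetramer of regulatory and catalytic subunits, and cyclic AMP binding to the regulatory subunits frees the catalytic subunits to phosphorylate receptors, channels and the transcription factor Creb1. The conventional PKC isoforms encoded by Prkca and Prkcb respond to calcium and diacylglycerol, whereas the form encoded by Prkce responds to diacylglycerol without calcium. These kinases are textbook components of long-term potentiation and memory in forebrain neurons.

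All markers in the lists for neurons (7 of 7), cortical excitatory neurons (10 of 10), astrocytes (9 of 9) and oligodendrocytes (8 of 8) were listed. Summed striatal markers (14 of 16 listed) spanned 14589 to 20609 normalized counts across Sham libraries and 11098 to 20066 across HF-HI libraries. Ttr, a choroid plexus gene, was at 6589 to 8663 normalized counts in 4 libraries, namely Sham replicates 1 and 2 and HF-HI replicates 2 and 5, and at 176 or below in the others. Each library held 3496103 to 10582858 reads in listed transcripts. Size factors, which express relative depth, spanned 0.818 to 1.47 across Sham libraries and 0.501 to 1.22 across HF-HI libraries, with a mean log2 difference of −0.55 (exact two-sided permutation p = 0.0280). HF-HI libraries were thus shallower as a group. For the members at an unadjusted p under 0.05, Prkaca, Prkacb, Prkar2b and the PKC genes, the difference is also given with log2 size factor as a term.

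The most abundant transcript of each of the 9 genes lay above the median level per kilobase of all listed transcripts. Per kilobase of transcript, the highest levels were those of Prkcb-202 with 1125 normalized counts per kb, Prkar1b-201 with 1043 and Adcy1-201 with 957, at percentiles 97.2, 96.9 and 96.6 of all listed transcripts. Prkaca-201 stood at 411 normalized counts per kb and Prkca-201 at 216. The lowest levels per kilobase were 98.7 normalized counts for Prkar2b-203 and 37.3 for Prkce-201.

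**Figure D1:**
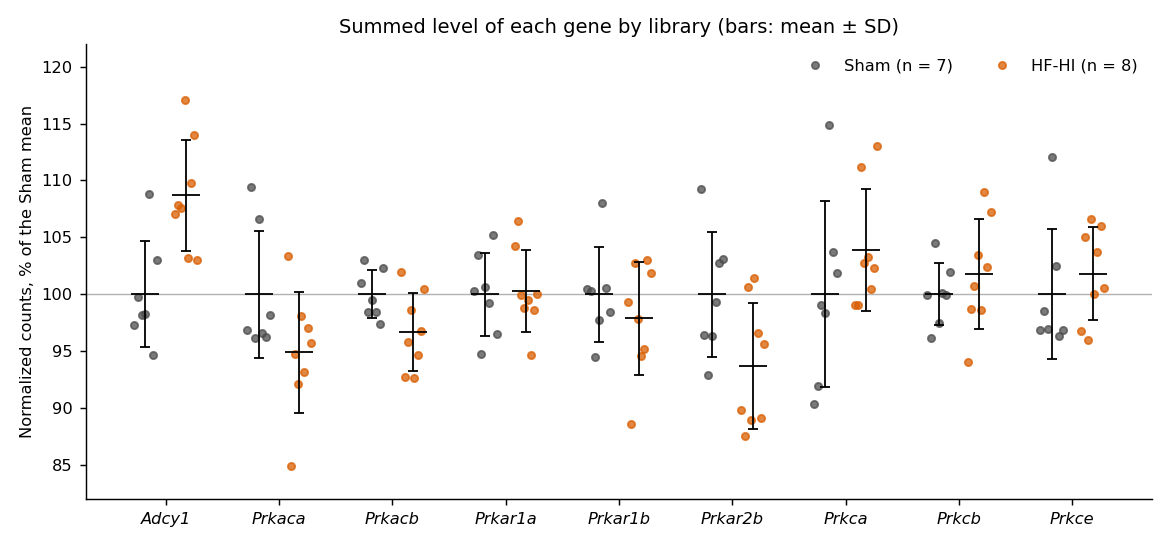
Summed normalized counts of each gene's listed transcripts in each library, as a percentage of that gene's Sham mean (y axis), for 7 Sham (grey) and 8 HF-HI (orange) libraries. Horizontal and vertical bars give the mean ± SD. All 8 Adcy1 values in HF-HI exceed the Sham median, with 3 above every Sham library. In HF-HI, 5 libraries for Prkaca, 5 for Prkacb and 4 for Prkar2b lie below every Sham library, and the ranges of the groups overlap for every gene.

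With reads summed per gene, Adcy1 was the only one of the 9 genes at an unadjusted p under 0.05 between HF-HI and Sham, and no gene of the 9 passed the adjusted threshold of 0.1. Over all genes tested, 9.43% were at an unadjusted p under 0.05, with 5.19% higher and 4.24% lower, so 1 of 9 is near that background. Adjusted over all genes, 1 of 7740 (0.0129%) passed, and it was not a member. Per transcript, 5 of the 18 listed transcripts were at an unadjusted p under 0.05 (limma on the deposited variance-stabilized values, VSD), against 8.83% of all transcripts (4.94% higher and 3.90% lower in HF-HI). They were Adcy1-201 and Prkar1a-203, which were higher in HF-HI, and Prkar1a-201, Prkacb-202 and Prkar2b-202, which were lower. None of the 18, and none of the 10370, passed an adjusted p of 0.1. The smallest adjusted p over all transcripts was 0.206. The study reported many significant genes from these libraries with its own DESeq2 fit to counts at the same threshold. The counts here are of the limma fits and do not reproduce that test. The calls other than that of Adcy1-201 were each lost in 7 to 10 of the 15 fits without a library, and all 5 were lost with depth as a term in the model.

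**Figure D2:**
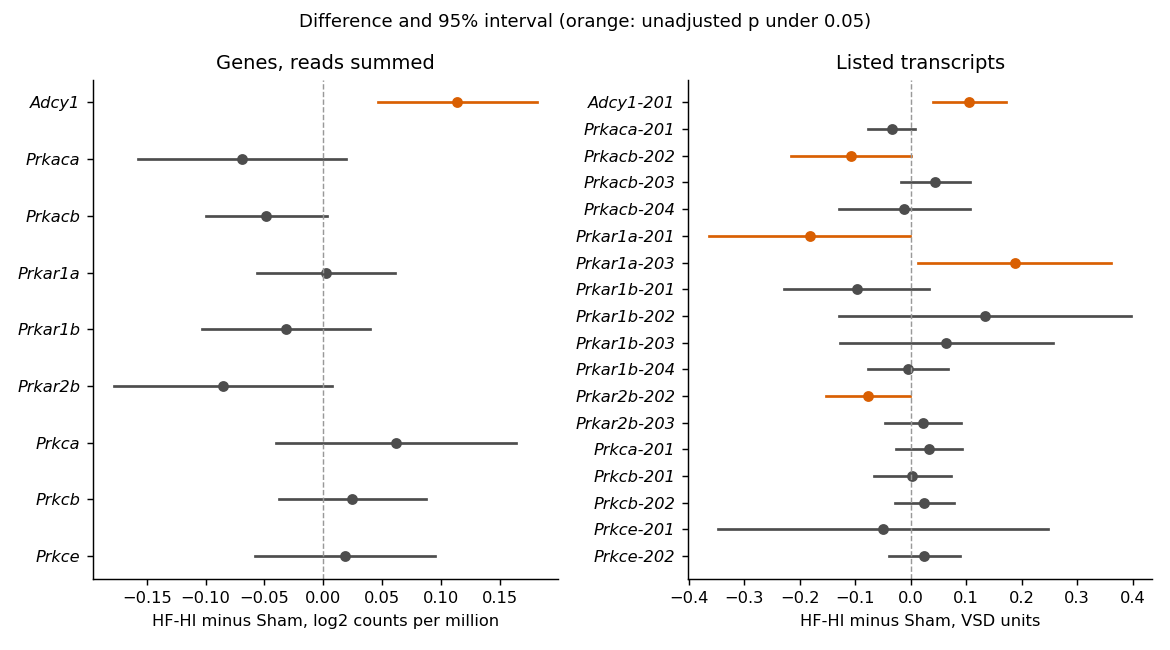
HF-HI minus Sham with its 95% interval for each of the 9 genes (left, x axis in log2 CPM of summed reads) and each of the 18 listed transcripts (right, x axis in VSD units). Orange marks an unadjusted p under 0.05, reached by 1 gene and 5 transcripts. The intervals of Prkar1a-201, Prkacb-202 and Prkar2b-202 end just below 0.

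Adcy1 was listed as a single transcript, Adcy1-201 (ENSMUST00000020706, mm10 chromosome 11, 7063489 to 7178506, plus strand), a protein-coding transcript of 20 exons and 12259 bases. Its normalized count spanned 10615 to 12200.3 across Sham libraries, with a median of 11012, and 11543 to 13127 across HF-HI libraries, with a median of 12074. All 8 HF-HI libraries were above the Sham median and 3 were above every Sham library, while the ranges overlapped between 11543 and 12200.3. The means were 11210.4 ± 520 (SD, n = 7) in Sham and 12185 ± 549 (SD, n = 8) in HF-HI. The difference was 0.11 ± 0.03 (SE) on the log2 scale of summed reads, with a 95% interval from 0.05 to 0.18 (limma-voom, unadjusted p = 0.00240, adjusted p = 0.269). On the VSD scale it was 0.11 ± 0.03 (limma, unadjusted p = 0.00386, adjusted p = 0.351).

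The unadjusted call for Adcy1 was kept when each of the 15 libraries was left out, with differences from 0.10 to 0.14 on the log2 scale. It was also kept in the 11 libraries of low Ttr (0.12). It was lost with log2 size factor as a term (0.07, limma-voom, adjusted p = 0.801). It was also lost when the libraries with a size factor above 1 were fitted alone (0.06, limma-voom, adjusted p = 0.973). The highest Adcy1 value of all, 13127, belonged to the shallowest library, HF-HI replicate 4. The study displayed Adcy1 among its learning and memory genes from these same libraries, so its direction here is not independent evidence.

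The PKA catalytic subunits were each slightly lower on average in HF-HI, within the spread of libraries. Prkaca (Prkaca-201, ENSMUST00000005606, Cα) spanned 923 to 1051 normalized counts across Sham libraries, with a median of 931, and 815 to 993 across HF-HI libraries, with a median of 915. In HF-HI, 5 of 8 libraries lay below all Sham libraries, yet the log2 difference of −0.07 did not pass even the unadjusted threshold (95% interval −0.16 to 0.02, limma-voom, unadjusted p = 0.118, adjusted p = 0.669). Summed Prkacb (Cβ) spanned 5577 to 5902 across Sham libraries and 5305 to 5843 across HF-HI libraries, with medians of 5698 and 5517. The log2 difference was −0.05 with a 95% interval from −0.10 to 0.00 (limma-voom, unadjusted p = 0.0646, adjusted p = 0.571). It came under an unadjusted p of 0.05 in 7 of 29 alternatives, among them quantile normalization (−0.07, unadjusted p = 0.0204) and a striatal covariate (−0.06, unadjusted p = 0.0196), and was −0.02 in the low-Ttr libraries (unadjusted p = 0.564). Its adjusted p over the alternatives lay between 0.425 and 0.955. With log2 size factor as a term the difference was −0.05 ± 0.03 for summed Prkacb (limma-voom, unadjusted p = 0.134) and −0.04 ± 0.05 for Prkaca (unadjusted p = 0.423). The slope of summed Prkacb on depth was 0.001 ± 0.03 per doubling (limma-voom, unadjusted p = 0.971). Over their 1053 coding bases the Prkaca-201 and Prkacb-202 messages are 80.2% identical position by position. The longest run shared by the full transcripts is 34 bases.

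Prkacb was listed as 3 transcripts that use different first exons and then share exons, on the minus strand of mm10 chromosome 3. Prkacb-202 also runs further at its 3′ end, to 146729574 against 146729865 for the shorter forms. The start of each coding sequence is shown because it is what separates the subunit forms, with the coding bases of the first exon in capitals and the next 24 bases, common to all of them, in lower case (GENCODE M21).
Prkacb-202 (ENSMUST00000102515, chr3:146812638-146812683): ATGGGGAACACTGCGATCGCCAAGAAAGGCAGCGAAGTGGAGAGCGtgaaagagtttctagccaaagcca
Prkacb-203 (ENSMUST00000106137, chr3:146769934-146769940): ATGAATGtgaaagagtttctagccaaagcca
Prkacb-204 (ENSMUST00000106138, chr3:146770516-146770525): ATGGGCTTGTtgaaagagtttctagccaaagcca
The own part of the coding sequence is thus 46 bases in Prkacb-202 but only 7 and 10 bases in the shorter forms. With their first-exon and other private bases outside the coding sequence, 614, 328 and 266 bases set the transcripts apart.

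Prkacb-202 spanned 2733 to 3058 normalized counts across Sham libraries and 1769 to 2845 across HF-HI libraries, with medians of 2862 and 2677. All 8 HF-HI libraries were below the Sham median and 5 were below all Sham libraries, with HF-HI replicate 2 far below the rest at 1769. The VSD difference was −0.11 ± 0.05 (limma, unadjusted p = 0.0494, adjusted p = 0.564). Leaving out a library removed this call in 10 of 15 cases. Without HF-HI replicate 2 the difference was −0.06 on the VSD scale, with a smaller unadjusted p (0.00755). With log2 size factor as a term it was −0.06 ± 0.06 (limma, adjusted p = 0.973).

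Prkacb-203 showed the opposite sign, with a VSD difference of 0.04 ± 0.03 (unadjusted p = 0.150). It spanned 1948 to 2224 normalized counts across Sham libraries and 1954 to 2458 across HF-HI libraries. As a share of the gene, Prkacb-203 was 36.7% ± 1.54 (SD, n = 7) in Sham and 39.9% ± 2.64 (SD, n = 8) in HF-HI, with 5 of 8 HF-HI libraries above all Sham libraries. The difference of Prkacb-203 from the other listed transcripts was 0.19 ± 0.10 on the log2 scale (limma diffSplice, unadjusted p = 0.0509, adjusted p = 0.351). Prkacb-204 made up 11.1% to 13.5% of the gene in Sham and 9.47% to 14.1% in 7 HF-HI libraries, but 22.4% in HF-HI replicate 2.

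Prkar1a, which encodes the type I regulatory subunit RIα, had transcripts whose shares differed between the groups at the unadjusted threshold, within a sum that showed no difference. Its summed level was 4442 ± 162 normalized counts (SD, n = 7) in Sham and 4453 ± 160 (SD, n = 8) in HF-HI. The log2 difference was 0.00 with a 95% interval from −0.06 to 0.06 (limma-voom, unadjusted p = 0.934), and it changed sign under several settings. The 2 listed transcripts on the plus strand of chromosome 11, Prkar1a-201 (ENSMUST00000049527, 109650921 to 109669656) and Prkar1a-203 (ENSMUST00000106677, 109649405 to 109669656), share all 1143 coding bases and their 3′ end. They differ only in noncoding exons at the 5′ end, 153 bases in Prkar1a-201 and 307 in Prkar1a-203, so they encode the same protein.

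Prkar1a-203 held 33.2% to 43.5% of the gene in Sham, with a median of 39.5%, and 32.2% to 68.6% in HF-HI, with a median of 46.3%. HF-HI replicates 1, 2, 6 and 7, at 61.5%, 49.4%, 56.9% and 68.6%, lay above every Sham library, and the other HF-HI libraries lay within the Sham range or, in HF-HI replicate 8, just below it. The mean share was 39.0% ± 3.97 (SD, n = 7) in Sham and 49.2% ± 12.2 (SD, n = 8) in HF-HI. Prkar1a-203 spanned 1527 to 1885 normalized counts across Sham libraries and 1431 to 3003 across HF-HI libraries, and Prkar1a-201 from 2377 to 3069 and 1377 to 3010.1. The SD over HF-HI libraries was 549 normalized counts for Prkar1a-203 and 547 for Prkar1a-201, against 144 and 251 over Sham libraries.

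By limma diffSplice, Prkar1a-203 was higher relative to Prkar1a-201 by 0.56 ± 0.19 on the log2 scale (unadjusted p = 0.00693, adjusted p = 0.161). With 2 transcripts this is a single contrast seen from both sides, and together they are the 2 of 15 member transcripts at an unadjusted p under 0.05, against 14.3% of all transcripts so tested (7.05% higher and 7.27% lower) and 2.25% past the adjusted threshold. On the VSD scale Prkar1a-203 differed by 0.19 ± 0.08 (limma, unadjusted p = 0.0361, adjusted p = 0.537) and Prkar1a-201 by −0.18 ± 0.09 (unadjusted p = 0.0493, adjusted p = 0.564). Leaving out a library removed the VSD call of Prkar1a-201 in 10 of 15 cases and that of Prkar1a-203 in 7. With log2 size factor as a term the VSD differences were −0.09 ± 0.10 and 0.11 ± 0.10 (limma, adjusted p = 0.979 and 0.968). The diffSplice call was kept in all 15 fits that left out a library, and without HF-HI replicate 8 it passed the adjusted threshold (adjusted p = 0.0370). It was lost with log2 size factor as a term, where the contrast was 0.27 ± 0.22 (limma, adjusted p = 0.678). Among the 9 libraries with a size factor above 1, 6 Sham and 3 HF-HI, the contrast was 0.01 ± 0.13 (limma, adjusted p = 0.988). The 4 HF-HI libraries with a high share of Prkar1a-203 all had size factors below 1, while the shallowest library, HF-HI replicate 4, had a share of 41.5%.

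**Figure D3:**
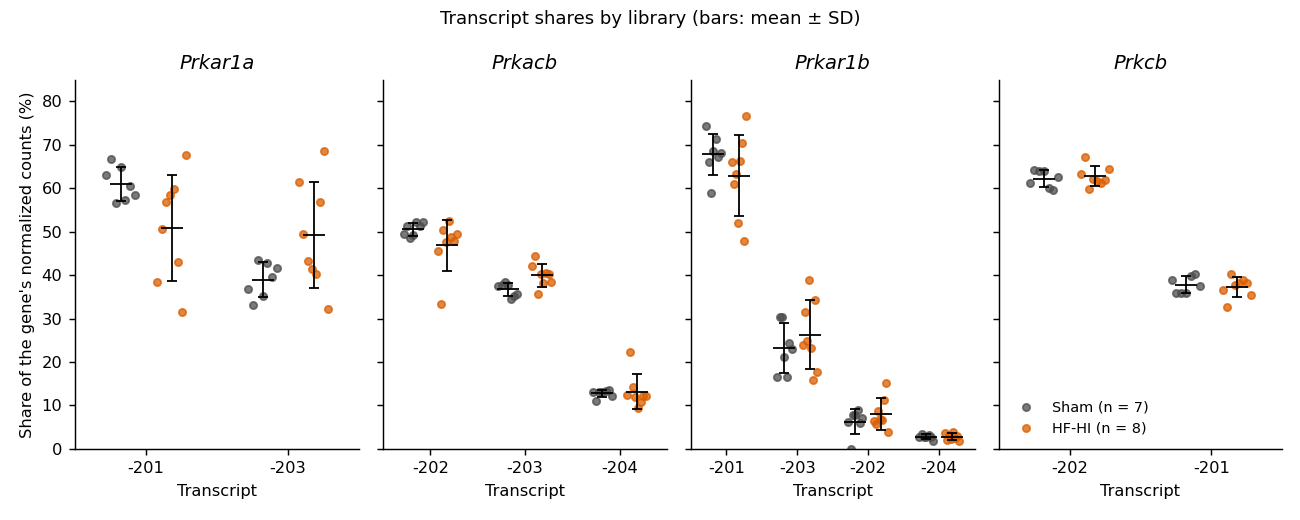
Share of each listed transcript in its gene's summed normalized counts (y axis, percent) for Prkar1a, Prkacb, Prkar1b and Prkcb in 7 Sham (grey) and 8 HF-HI (orange) libraries, with mean ± SD. Prkar1a-203 spreads from 32.2% to 68.6% in HF-HI against 33.2% to 43.5% in Sham, whereas the shares of Prkcb hardly move.

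The sequence just before each annotated Prkar1a start is shown because the transcripts begin at different places (RefSeq, GRCm38.p6, 5′ to 3′, cut before the earlier of the RefSeq and GENCODE starts). They also differ in splicing, with 12 exons in Prkar1a-203 and 11 in Prkar1a-201. Only 123 of the 307 own bases of Prkar1a-203 are its first exon. Whether either stretch acts as a promoter was not tested. Capitals mark TGACG or its complement CGTCA, the core of the cyclic AMP response element.
Before Prkar1a-201 (chr11:109650699-109650920, plus strand): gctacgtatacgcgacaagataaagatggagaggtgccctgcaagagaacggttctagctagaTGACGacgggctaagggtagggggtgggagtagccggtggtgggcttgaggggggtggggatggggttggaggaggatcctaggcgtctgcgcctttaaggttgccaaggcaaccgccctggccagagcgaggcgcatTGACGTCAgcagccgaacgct
Before Prkar1a-203 (chr11:109649113-109649362, plus strand): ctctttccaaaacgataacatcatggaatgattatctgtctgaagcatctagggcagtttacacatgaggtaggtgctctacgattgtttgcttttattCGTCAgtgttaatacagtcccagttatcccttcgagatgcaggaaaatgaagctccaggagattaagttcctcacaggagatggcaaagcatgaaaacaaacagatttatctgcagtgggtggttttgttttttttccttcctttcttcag
The stretch before Prkar1a-201 holds the full palindrome TGACGTCA close to the start and a further TGACG, and the 2 orientations of the core overlap within the palindrome. The stretch before Prkar1a-203 holds a single CGTCA. Among 32851 promoter windows of 300 bases, 1.79% contain TGACGTCA and 20.8% contain TGACG on either strand. Of the 11 member transcripts with a RefSeq start within 100 bases, only Prkar1a-201 has TGACGTCA in its window. These matches describe the letters and say nothing of binding.

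Prkar1b, the neuronal RIβ subunit, was listed as 4 transcripts that differ in their 5′ exons. Prkar1b-204, of 918 bases, also ends earlier at the 3′ side. Prkar1b-201 and Prkar1b-203 have 1143 annotated coding bases, Prkar1b-202 has 771 and Prkar1b-204 has 704. Summed, it spanned 4024 to 4603 normalized counts across Sham libraries and 3773 to 4387 across HF-HI libraries, with medians of 4274 and 4199. The log2 difference was −0.03 with a 95% interval from −0.10 to 0.04 (limma-voom, unadjusted p = 0.358, adjusted p = 0.812). Prkar1b-201 (ENSMUST00000026973) made up 59.0% to 74.4% of the gene in Sham and 47.8% to 76.7% in HF-HI, and Prkar1b-203 (ENSMUST00000110890) most of the remainder. Neither differed between groups on the VSD scale at an unadjusted p under 0.05 (limma, −0.10, adjusted p = 0.679, and 0.06, adjusted p = 0.873). Prkar1b-202 spanned 0 to 410 normalized counts across Sham libraries and 164 to 664 across HF-HI libraries (VSD difference 0.13, unadjusted p = 0.296), and Prkar1b-204 from 71.3 to 151 and 76.9 to 159 (VSD difference 0.00, unadjusted p = 0.899). The Prkar1a-201 and Prkar1b-201 coding sequences, of 1143 bases each, are 73.8% identical position by position. The full transcripts share no run above 17 bases.

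Prkar2b encodes RIIβ, the regulatory subunit that anchoring proteins hold at dendrites and membranes in forebrain neurons. Its summed level spanned 678 to 797 normalized counts across Sham libraries and 639 to 739.7 across HF-HI libraries, with medians of 724 and 676, and 4 HF-HI libraries lay below all Sham libraries. The log2 difference was −0.09 with a 95% interval from −0.18 to 0.01 (limma-voom, unadjusted p = 0.0679, adjusted p = 0.581). With log2 size factor as a term it was −0.02 (limma-voom, unadjusted p = 0.703, adjusted p = 0.977), and the slope of summed Prkar2b on depth was 0.14 ± 0.05 per doubling (unadjusted p = 0.0146, adjusted p = 0.463). Prkar2b-202 (ENSMUST00000036497), which alone carries 301 of its coding bases, spanned 390.1 to 476 across Sham libraries and 257 to 446 across HF-HI libraries. Its VSD difference was −0.08 ± 0.04 (limma, unadjusted p = 0.0476, adjusted p = 0.561) and leaving out a library removed the call in 9 of 15 cases. With log2 size factor as a term it was −0.02 ± 0.04 (limma, adjusted p = 0.990). Prkar2b-203 spanned 227 to 337 across Sham libraries and 228 to 393 across HF-HI libraries, with a VSD difference of 0.02 (unadjusted p = 0.507). Reads of the 3 regulatory genes over those of the 2 catalytic genes gave a ratio of 1.36 to 1.49 in Sham and 1.39 to 1.49 in HF-HI, with medians of 1.39 and 1.44.

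None of the PKC isoforms differed between the groups at an unadjusted p under 0.05. Prkca (Prkca-201, ENSMUST00000059595) spanned 1606 to 2042 normalized counts across Sham libraries and 1761 to 2009.5 across HF-HI libraries, with medians of 1761 and 1823. Its log2 difference was 0.06 with a 95% interval from −0.04 to 0.16 (limma-voom, unadjusted p = 0.220, adjusted p = 0.747), and it reached an unadjusted p of 0.0306 only without Sham replicate 5. Summed Prkcb spanned 4993 to 5424 across Sham libraries and 4884 to 5659 across HF-HI libraries, with a log2 difference of 0.02 and a 95% interval from −0.04 to 0.09 (unadjusted p = 0.419). Summed Prkce spanned 2709.5 to 3154 across Sham libraries and 2701 to 2999.6 across HF-HI libraries, with a log2 difference of 0.02 and a 95% interval from −0.06 to 0.09 (unadjusted p = 0.618). These intervals are from the fit without depth, and they do not show that the levels were equal. With log2 size factor as a term the difference was 0.10 ± 0.06 for Prkca (limma-voom, unadjusted p = 0.0862, adjusted p = 0.842). It was 0.01 ± 0.04 for Prkcb (unadjusted p = 0.786) and −0.002 ± 0.04 for Prkce (unadjusted p = 0.958).

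Prkcb was listed in its 2 well-known splice forms, on the plus strand of chromosome 7, which end in different exons and give the PKCβII and PKCβI tails. The coding part of each last exon is shown because it is the whole coding difference between them (GENCODE M21).
Prkcb-202, βII tail (ENSMUST00000064989, chr7:122627656-122627811): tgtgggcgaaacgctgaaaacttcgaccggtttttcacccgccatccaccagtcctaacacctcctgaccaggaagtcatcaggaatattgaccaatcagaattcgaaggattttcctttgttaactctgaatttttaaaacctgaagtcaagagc
Prkcb-201, βI tail (ENSMUST00000064921, chr7:122633745-122633894): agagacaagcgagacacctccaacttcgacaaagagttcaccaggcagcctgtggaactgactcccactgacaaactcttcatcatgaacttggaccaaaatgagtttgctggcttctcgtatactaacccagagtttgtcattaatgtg
The βII tail has 156 coding bases and the βI tail 150. Prkcb-202 held 59.7% to 64.1% of the gene in Sham and 59.9% to 67.3% in HF-HI, with means of 62.2% ± 1.93 (SD, n = 7) and 62.7% ± 2.30 (SD, n = 8). The log2 difference of Prkcb-202 from Prkcb-201 was 0.03 ± 0.06 (limma diffSplice, unadjusted p = 0.620, adjusted p = 0.878), and the βII form was the more abundant in every library of both groups. The VSD differences were 0.02 (unadjusted p = 0.342) for Prkcb-202 and 0.00 (unadjusted p = 0.927) for Prkcb-201.

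Prkce-202 (ENSMUST00000097275) carried 91.3% or more of Prkce in every library, with 2514 to 2884 normalized counts in Sham and 2487 to 2977 in HF-HI (VSD difference 0.02, unadjusted p = 0.429). Prkce-201 spanned 0 to 271 across Sham libraries and 0 to 258 across HF-HI libraries (VSD difference −0.05, unadjusted p = 0.728). Prkce-201 has no base of its own outside Prkce-202, apart from exon junctions.

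Depth differed between the groups, and a few member transcripts had a slope on depth at an unadjusted p under 0.05. In the model with group and log2 size factor as terms, whose slopes on depth were read after the group results had been seen, Prkar1b-201 was higher by 0.26 ± 0.04 VSD per doubling of depth (limma, adjusted p = 0.0492), 1 of 22 among 10370 transcripts past the adjusted threshold for depth. Prkar1b-203 was lower by a slope of −0.32 ± 0.08 (unadjusted p = 0.00136, adjusted p = 0.151). Prkar2b-202 had a slope of 0.10 ± 0.04 (unadjusted p = 0.0191, adjusted p = 0.344) and Adcy1-201 of −0.07 ± 0.04 (unadjusted p = 0.0663, adjusted p = 0.514). Of the 18 transcripts, only Prkar1b-201, Prkar1b-203 and Prkar2b-202 had a slope at an unadjusted p under 0.05, beside 1097 of all 10370. With log2 size factor as a term none of the 18 transcripts differed between the groups at an unadjusted p under 0.05. Prkar1b-201 then changed sign, from −0.10 to 0.04 VSD, and Prkar1b-203 from 0.06 to −0.11.

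**Figure D4:**
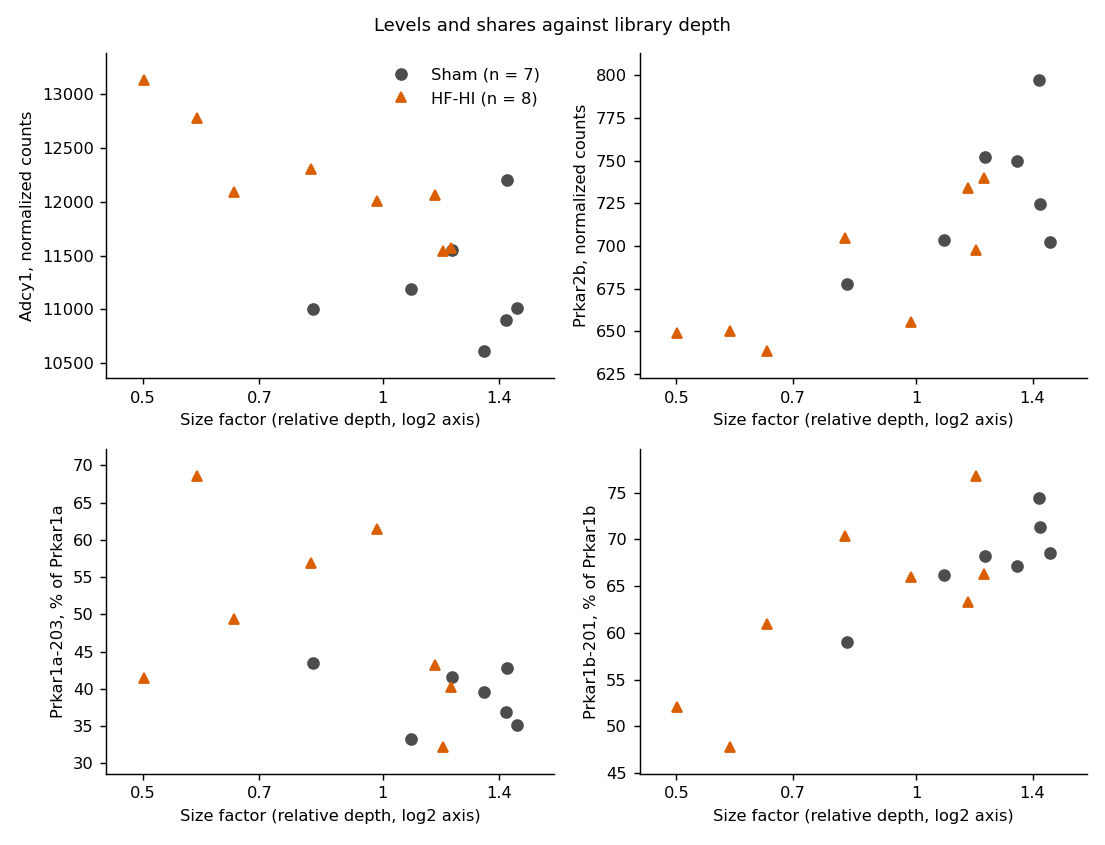
Adcy1 and Prkar2b (summed normalized counts) and the shares of Prkar1a-203 and Prkar1b-201 in their genes (percent) against size factor on a log2 axis, for 7 Sham (grey circles) and 8 HF-HI (orange triangles) libraries. A size factor above 1 belongs to 6 of the 7 Sham libraries but 3 of the 8 HF-HI libraries, and there the groups overlap in the Prkar1a-203 share.

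The 4 PKA genes with alternative 5′ ends shared a feature that the choice of members did not use. In each of them, the transcript whose own bases were richest in G and C was the one with the lower difference from the others in HF-HI, and its slope on depth was positive. The GC content of the own bases was 80.5% in Prkar1b-201 against 53.3% to 58.9% in the other Prkar1b transcripts, 73.2% in Prkar1a-201 against 57.7% in Prkar1a-203, 73.4% in Prkar2b-202 against 54.7% in Prkar2b-203, and 52.9% in Prkacb-202 against 43.9% and 44.4% in the shorter forms. The log2 differences from the other listed transcripts were −0.38 for Prkar1b-201 (unadjusted p = 0.236), −0.56 for Prkar1a-201, −0.28 for Prkar2b-202 (unadjusted p = 0.0980) and −0.18 for Prkacb-202 (unadjusted p = 0.0727). The slopes on depth were 0.26 ± 0.04, 0.17 ± 0.10, 0.10 ± 0.04 and 0.09 ± 0.06 VSD per doubling in the same order. Those of Prkar1a-201 (limma, unadjusted p = 0.121, adjusted p = 0.595) and Prkacb-202 (unadjusted p = 0.158, adjusted p = 0.630) did not pass even the unadjusted threshold. With depth as a term the Prkar1b-201 difference was positive, at 0.04. Prkcb, whose transcripts differ at the 3′ end, did not follow the pattern. Its own bases were 45.0% GC in Prkcb-202 against 40.4% in Prkcb-201. The difference of Prkcb-202 from Prkcb-201 was 0.03, and its slope on depth was −0.04 ± 0.03 VSD per doubling (limma, unadjusted p = 0.174). The pattern was noticed in the data over 4 genes, and the part of base composition in it was not tested. In Prkacb-202, 323 of the 614 own bases are the first exon. Its other own bases lie at the 3′ end, so its GC value is not of the 5′ end alone.

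A wider list of 84 genes of the same pathways was described beside the members, of which 73 were listed with 116 transcripts. Of these, 8 transcripts (6.90%) were at an unadjusted p under 0.05, 1 higher and 7 lower in HF-HI, against 8.83% of all transcripts, and none passed the adjusted threshold. None of the 7 transcripts of other adenylyl cyclases, 4 of other PKA subunits and PKA inhibitors, 3 of other PKC isoforms, 14 of A-kinase anchoring proteins or 15 of G protein alpha subunits was among them. Among phosphodiesterases 2 of 26 transcripts were lower, and 4 of 26 transcripts of kinase substrates and cyclic AMP effectors. Of 21 transcripts of phospholipases C and diacylglycerol kinases, 1 was higher and 1 lower.

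Pde10a-202, a cyclic nucleotide phosphodiesterase abundant in striatum, spanned 2247 to 3271 normalized counts across Sham libraries and 1199 to 2277 across HF-HI libraries, with all 8 HF-HI libraries below the Sham median. Its VSD difference was −0.31 ± 0.08 (limma, unadjusted p = 0.00158, adjusted p = 0.311). Ppp1r1b-201, which encodes the PKA substrate DARPP-32, spanned 327 to 753 across Sham libraries and 202 to 653 across HF-HI libraries (VSD difference −0.20 ± 0.08, unadjusted p = 0.0239, adjusted p = 0.504). Both genes are also in the striatal marker list, whose summed level moved in the same direction. That sum contains both of them, so its direction is not independent of theirs. The part of striatal tissue in these values was not tested. The other lower transcripts were Pde7a-202, Marcksl1-201, Rapgef4-210, Ppp1r9b-201 and Plcb1-204. Pde7a-202 encodes a cyclic AMP phosphodiesterase, Marcksl1-201 a PKC substrate and Ppp1r9b-201 a spine scaffold of protein phosphatase 1. Rapgef4-210 is a noncoding transcript of the cyclic AMP effector Epac2, and Plcb1-204 is annotated as a retained-intron transcript of a phospholipase C gene. In the order first named, the VSD differences of these lower transcripts were −0.05, −0.06, −0.21, −0.10 and −0.06, with overlapping ranges in each case. Their adjusted p by limma lay between 0.525 and 0.555. Other listed protein-coding transcripts of Pde10a, Ppp1r1b, Ppp1r9b, Rapgef4 and Plcb1 leaned higher in HF-HI, each at an unadjusted p above 0.05. The VSD differences were 0.07 for Pde10a-208, 0.11 for Ppp1r1b-204, 0.13 for Ppp1r9b-202 and 0.10 for Rapgef4-203. They were 0.005 for Rapgef4-202, 0.06 for Plcb1-201 and 0.02 for Plcb1-202. The lower values are thus of single transcripts, and sums over their genes are not reported here. Dgkz-206, a transcript of a diacylglycerol kinase annotated for nonsense-mediated decay, was higher, at 89.2 to 268 in HF-HI and 102 to 165 in Sham (VSD difference 0.10, unadjusted p = 0.0228, adjusted p = 0.497).

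Over the 15 libraries, the genes whose log2 summed level followed that of each member most closely were found by Pearson's r, as a description in which all points share the same libraries and depths. Adcy1 had the closest neighbours, Kndc1 (r = 0.938), a brain guanine nucleotide exchange factor, and Rims3 (r = 0.911), a presynaptic active zone protein. Prkca was closest to Chd2 (r = 0.890) and Sbno1 (r = 0.872), Prkcb to Kcnq3 (r = 0.886), a voltage-gated potassium channel, and Jcad (r = 0.857), and Prkce to Ksr2 (r = 0.843) and Gm42742 (r = 0.830). For the PKA genes, Prkaca was closest to Gda (r = 0.873) and Gapdh (r = 0.854), Prkacb to Dmtf1 (r = 0.828) and Olfm3 (r = 0.807), Prkar1a to Stard3nl (r = 0.879) and Trnt1 (r = 0.836), Prkar1b to Fut9 (r = 0.889) and Crebzf (r = 0.884), and Prkar2b to Ap3b1 (r = 0.831) and Smpdl3a (r = 0.826). No member was among the closest genes of another. Among the 36 pairs of members r spanned −0.70 for Prkcb with Prkar1a to 0.65 for Prkaca with Prkacb, and 16 pairs were positive, so the members did not move as a block.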

How the data were processed

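Cortical total RNA of 7 Sham and 8 HF-HI mice was sequenced, and groups and replicates were taken from the sample titles. Per the study's methods, the authors used a stranded total RNA kit after ribosomal RNA depletion, aligned reads to mm10 with STAR, used eXpress for estimated counts of each Ensembl transcript and normalized these with DESeq2, with outlier removal by Cook's distance. The annotation release is not given in the sources used here. The authors deposited variance-stabilized values on the log2 scale (VSD), on which a doubling is worth 0.20 at 100 normalized counts, 0.53 at 1000 and 0.89 at 10000.

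The transformation was inverted to whole reads (100% of values within 0.1 reads) and size factors. The recovered reads cover only listed transcripts, whose lowest mean was 107.9 normalized counts. Transcripts were matched to GENCODE M21 of GRCm38, and 10241 of 10370 had an entry. eXpress splits reads between transcripts of a gene by model, so summed reads are the more secure values. Intervals are 95%.

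Transcripts were tested with limma 3.58.1 (R 4.3.3) on VSD with eBayes trend, genes with limma-voom on summed reads, and transcripts against the others of their gene with diffSplice. All tests were two-sided, HF-HI minus Sham, with Benjamini-Hochberg adjustment over all features at the study's threshold of 0.1, and counts are also given at an unadjusted p under 0.05. The labels do not name the animals, so p-values measure the spread between these samples. The code was tested on simulated data, and with no change simulated no test called any feature. At a simulated log2 change of 0.5, diffSplice called 194 changed and 39 unchanged transcripts at an adjusted p under 0.1. That is more unchanged transcripts than the threshold allows, so adjusted diffSplice calls are to be read with caution. Limma on VSD called 199 changed and 23 unchanged transcripts. The members and lists were chosen with earlier results of these data known. Named genes were all member transcripts, pathway transcripts at an unadjusted p under 0.05, and for each member the 2 genes of highest Pearson r. Alternatives changed normalization, filtering, pseudocount, library weights, covariates and the libraries used. Sequences came from GENCODE M21 and RefSeq, and protein sequences were not used here.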

Additional observations from a re-analysis of the deposited data

Results flagged for a closer look

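Some single libraries stood apart from the others of their group by Dixon's gap test. Of 86 groups of values tested, 7 were flagged, and chance flags about 1 in 20. In HF-HI replicate 2, Prkacb-202 was at 1769 normalized counts against 2642 to 2845 in the other HF-HI libraries, and its share of Prkacb was 33.3% against 45.5% to 52.4%. In the same library Prkacb-204 was at 1188 normalized counts against 502 to 776, and its share was 22.4% against 9.47% to 14.1%. That library also had high Ttr (8663 normalized counts) and a size factor of 0.650. In Sham replicate 2, Prkar1b-202 was at 0 normalized counts against 250 to 410 in the other Sham libraries, and its share was 0% against 5.83% to 8.92%. Summed Prkce in Sham replicate 4 was 3154 normalized counts against 2709.5 to 2884 in the rest.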

How the results depend on the processing

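No member passed the adjusted threshold under any alternative for transcripts or summed genes. Members that passed at an unadjusted p under 0.05, which were 5 transcripts, 1 gene and 2 transcripts by diffSplice (8 transcripts of the pathway list), numbered as follows. With log2 size factor as a term they were 0, 0 and 0 (3), and in libraries of size factor above 1, 0, 0 and 0 (4). With voom per transcript there was 1 (4), with the striatal covariate 1 transcript and 2 genes, with log2(count + 1) or log2(count + 10) 3 and 2, with low Ttr libraries only 2 and, by diffSplice, 4 (5). Quantile normalization or library weights gave 2 genes (Prkacb beside Adcy1, as with the striatal covariate), the dominant transcript alone 3 genes (Prkar1a as well), and the stricter filter 4 pathway transcripts. Leaving out each library gave 1 to 6 transcripts, 1 to 2 genes, 2 to 4 by diffSplice (0 to 2 adjusted) and 3 to 11 pathway transcripts. The lowest transcript count, 1, came without Sham replicate 1, Sham replicate 4 or HF-HI replicate 7. It was 2 without Sham replicates 2, 6 or 7 or HF-HI replicates 2 or 6, and 3 without Sham replicate 5 or HF-HI replicates 1 or 4. Genes numbered 2 without Sham replicates 3, 5 or 6 or HF-HI replicates 1, 3, 5 or 8, diffSplice 4 without HF-HI replicates 1, 5 or 6, and the pathway list 4 and 3 without HF-HI replicates 2 and 7. Without HF-HI replicate 8 both Prkar1a transcripts passed the adjusted diffSplice threshold.

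Same-numbered deviations correlated between −0.138 and 0.0905, which gave no sign that replicate numbers pair the samples. Differently numbered samples were not correlated for reference, so pairing was not settled. HF-HI replicate 8 has no Sham partner, so a replicate block also takes it out of the comparison. That fit gave 2 adjusted diffSplice calls (Prkar1a, −0.73 for Prkar1a-201, adjusted p = 0.0685) and 14 pathway transcripts, and leaving out HF-HI replicate 8 without a block gave 2 (−0.73, adjusted p = 0.0370) and 11. Prkar1b-204 was reversed in both (0.00758 VSD), and Prkacb-204 against the other transcripts with the block (0.0149).

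The other reversals concerned values that had not passed any threshold, apart from Prkar1a-203. In libraries of size factor above 1 the VSD differences became −0.0117 for Prkacb-203, −0.00472 for Prkar1b-203, 0.0134 for Prkar1b-204, −0.00313 for Prkar1a-203, −0.0154 for Prkce-202 and 0.0680 for Prkce-201. The summed differences became −0.0237 for Prkce and −0.0148 for Prkar1a, and those against the other transcripts 0.00834 for Prkacb-202 and −0.0475 for Prkar1b-203. With log2 size factor the VSD differences became 0.0427 for Prkar1b-201, −0.112 for Prkar1b-203, 0.0229 for Prkar1b-204 and 0.0181 for Prkce-201. Summed Prkce became −0.00235, and differences against other transcripts 0.0371 for Prkar1b-201, −0.405 for Prkar1b-203 and −0.0202 for Prkcb-202. Summed Prkar1a became −0.00228 with library weights, −0.000309 with median centring, −0.00513 with the striatal covariate and −0.00198 with quantile normalization. With the dominant transcript in place of the sum, the Prkar1a value was −0.282 (limma-voom, unadjusted p = 0.0449). That value is of Prkar1a-201 alone. Prkar1b-204 became 0.0150 with library weights, 0.00798 with quantile normalization, 0.00896 with low Ttr and 0.0270 with voom, where Prkce-201 became 0.375. Summed Prkar1b became 0.00110 with low Ttr. Against the other transcripts, Prkacb-204 became 0.00422 and Prkar1b-203 −0.208 with log2(count + 1), and 0.00504 and −0.0548 with log2(count + 10).

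Leaving out single libraries reversed 8 differences, which then ranged from −0.0588 to 0.0159 for Prkacb-204 VSD, −0.137 to 0.0667 for Prkacb-204 against the others, −0.00873 to 0.0148 for summed Prkar1a and −0.00935 to 0.280 for Prkar1b-203 against the others. They ranged from −0.0230 to 0.00874 for Prkar1b-204 VSD, −0.0110 to 0.0220 for Prkcb-201 VSD, −0.00366 to 0.0607 for Prkcb-202 against Prkcb-201 and −0.127 to 0.0101 for Prkce-201 VSD. The cause of these changes was not tested. The low Ttr and size factor subsets were chosen after seeing the data. The lowest depth, 3496103 reads, limits the precision of the rarer transcripts.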
